A study of Homo sapiens with 7 samples.

Results

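The genes described here are 40 genes that carry cells through mitosis, taken by name as a list of G2/M, spindle checkpoint and kinetochore genes. The list was chosen with earlier results of these data known. All 40 had a row among the 16522 genes with a test in the authors' deposited table. That table compares AXL knockout cells with parental cells of PC9, an established human lung adenocarcinoma line with an activating EGFR mutation. AXL is a receptor tyrosine kinase. The knockout group has 4 libraries, from 2 clones (Clone 1 and Clone 2) with 2 libraries each, and the parental group has 3 libraries. Both groups are PC9 cells in the same medium, and no drug treatment is recorded. Each clone was grown from 1 sorted cell, so its libraries share whatever that founding cell carried. The labels record no cloning of the parental cells, so effects of cloning and of the knockout cannot be told apart. The labels do not say whether libraries of 1 group were grown as separate cultures. The spread that the p-values rest on may therefore be partly technical. The series title places the study in drug resistance and error-prone DNA replication.

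Mitosis is driven by the kinase CDK1 with B-type cyclins, and the genes needed for it are transcribed mainly in G2, under the transcription factors FOXM1 and B-MYB and the MuvB complex. Chromosomes are held to spindle microtubules at kinetochores, and the spindle assembly checkpoint delays anaphase until every kinetochore is attached. The anaphase-promoting complex with CDC20 then marks cyclin B and securin for destruction, the sister chromatids part, and the cleavage furrow divides the cell. Since these transcripts are most abundant in G2 and M, their summed level in a proliferating culture follows the share of cells in those phases. In bulk RNA, fewer cells in G2 and M and less RNA per cell cannot be told apart.

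The knockout was visible in the targeted gene, with an implied level of 18.2 normalized counts in AXL knockout cells, against 1417 in parental cells, and a log2 fold change of -6.28 ± 0.18 in the authors' deposited table. The libraries averaged 12209504 normalized counts, and their size factors lay between 0.938 and 1.06. Of the protein-coding transcripts of the mitochondrial genome, listed here as a sign of RNA quality, 13 of 13 were lower in AXL knockout cells, with a summed level of 245327 in knockout and 413582 in parental cells. The 5 epithelial markers tested summed to 122823 in AXL knockout and 76608 in parental cells. The keratins KRT8, KRT18 and KRT19 rose, CDH1 fell (-0.33 ± 0.06) and EPCAM did not pass (-0.03 ± 0.04). Of 6 fibroblast markers 1 had a row, COL1A1, at 84.0 in knockout and 126 in parental cells, and none of 5 leukocyte markers had a row. The 3 endothelial markers summed to 2087 in AXL knockout and 807 in parental cells. Of these PECAM1 rose, at 1777 in knockout and 351 in parental cells, CDH5 stood at 305 in knockout and 455 in parental cells and did not pass, and VWF was at 4.87 in knockout and 0.976 in parental cells. The part of these differences in the values that follow was not tested.

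Most of the genes that passed the test were lower in AXL knockout cells, and none by as much as 2-fold. In the authors' deposited table, 16 of the 40 were lower at an adjusted p under 0.05, 1 was higher (SPC25) and 23 did not pass. Of all genes tested, 18.5% were lower and 19.5% were higher by the same rule (38.0% in either direction). Among the 8110 genes whose mean lay in the range of these 40 (172 to 4062 normalized counts), 23.1% were lower and 27.3% were higher. The 40 genes thus had a larger lower share (40%) and a smaller higher share (2.5%) than either background. Because they were chosen with earlier results of these data known, this difference is a description and not a test. Their median log2 fold change was -0.14, against -0.01 over all genes and 0.01 over the genes in that range. Fold changes are knockout over parental, and the authors' standard error (SE) follows each as ±. The fold change was negative for 31 and positive for 9, whether or not it passed. Of the 16 lower genes, 3 fell below a log2 fold change of -0.5: MKI67, BUB3 and CDC25B. The 40 lie on 17 chromosomes, and their levels summed to 56726 normalized counts in AXL knockout cells and 66378 in parental cells. Group levels here and below are implied by the mean and fold change in that table, are given per library and come without an error; the libraries' own values were not analysed here. A level compares groups within a gene, not genes with each other.

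How many genes passed depended on the rule, and the share of all genes moved with it. When the Wald statistic was read against a t distribution with 5 degrees of freedom, which allows for the small number of libraries, 8 of the 40 were lower and 1 higher, where 9.77% of all genes were lower and 11.3% higher. CDC25B, KIF11, TPX2, HMMR, KIF20A, UBE2C, PTTG1 and FOXM1 were the 8 that no longer passed. At an adjusted p under 0.01, 11 were lower and 1 higher, against 14.4% and 15.6% of all genes. Tested against a log2 fold change of 0.25 in either direction, MKI67 and BUB3 remained lower and SPC25 higher, against 8.07% and 8.89% of all genes. With at least a 2-fold change required, 0 were lower and 0 higher, against 4.64% and 4.44%. Among genes with a mean of at least 20 the counts were 16 and 1, against 22.7% and 25.4%, and after centring on the median of abundant genes 16 and 1, against 19.0% and 19.1%.

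**Figure D1:**
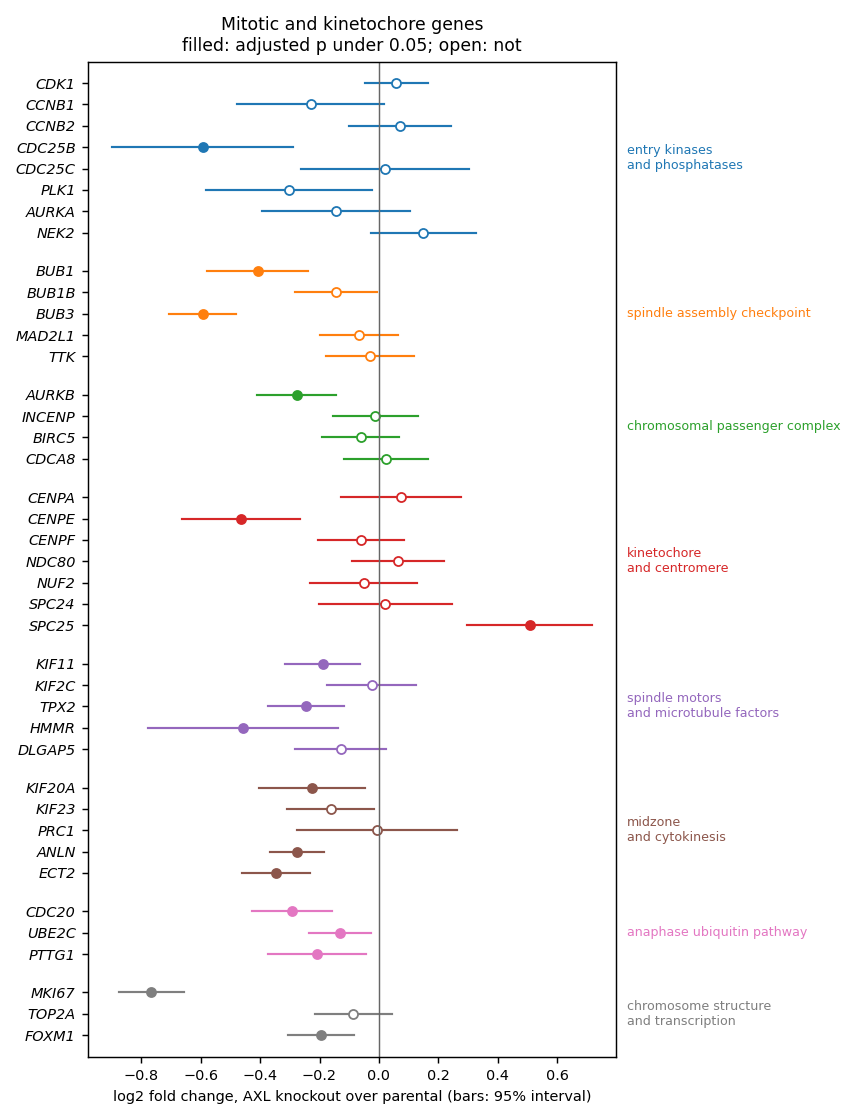
Log2 fold change of each of the 40 genes, AXL knockout over parental, on the horizontal axis, with 95% intervals from the authors' standard errors as bars. Genes are grouped and coloured by role, and filled points have an adjusted p under 0.05. The 16 filled points left of 0 run from UBE2C at -0.13 to MKI67 at -0.77, and SPC25 at 0.51 is the 1 filled point on the right.

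**Figure D2:**
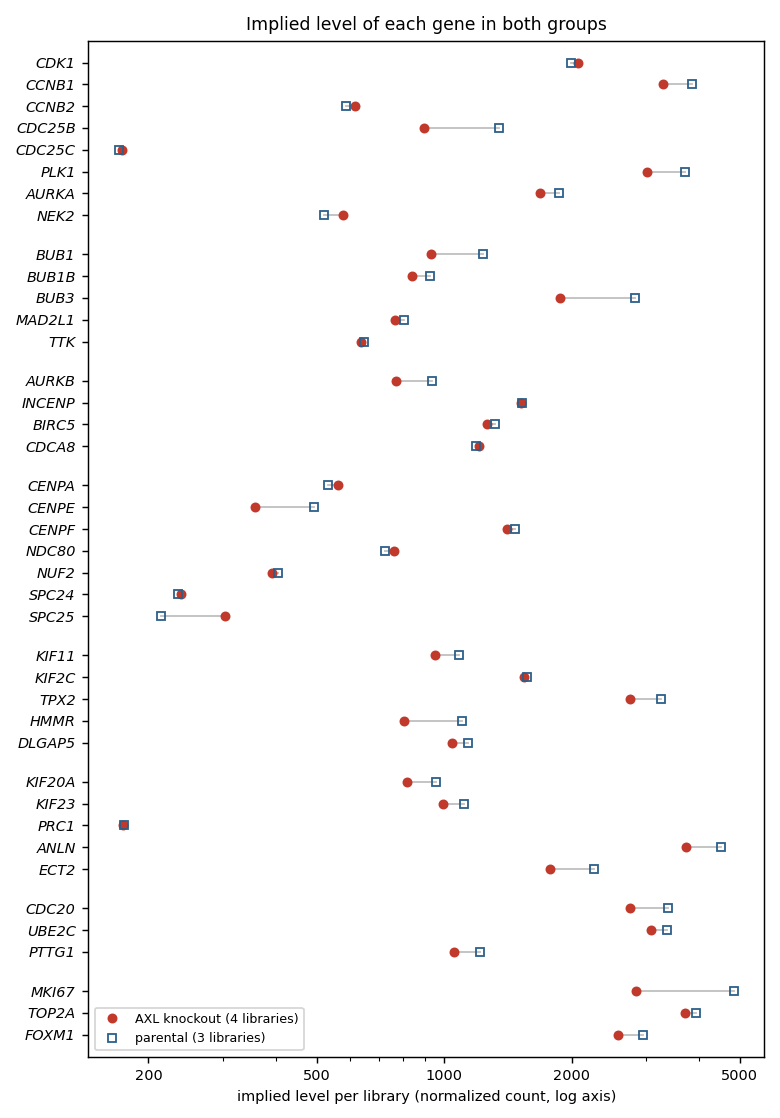
Implied level of each gene in normalized counts per library on a log axis, in AXL knockout cells (red circles) and parental cells (open blue squares). Levels run from about 170 for CDC25C and PRC1 to 4834 for MKI67 in parental cells, and for most genes the 2 symbols nearly touch.

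Promoters of G2/M genes are known for 2 short elements, the CHR (TTTGAA), which the MuvB complex binds, and CCAAT boxes, which NF-Y binds. They are shown here because they were more frequent among these genes than among all tested genes, though not every gene has them. RefSeq gave a promoter entry (GRCh38.p14, 250 bases before to 50 after the start) for 33 of the 40, all but TTK, BIRC5, UBE2C, FOXM1, AURKA, BUB3 and TPX2. On either strand, TTTGAA occurred in 23 of the 33 (69.7%) and in 13.6% of the 11477 tested genes with an entry. CCAAT occurred in 27 (81.8%) and in 42.4% of those tested genes. Both occurred in 19 (57.6%) and in 5.63%. Over all 35116 starts in the RefSeq table the shares were 15.2% for TTTGAA, 34.6% for CCAAT and 5.90% for both. Below, 120 bases from the promoters of 5 genes are printed 5′ to 3′ in the direction of the gene. They end at the base before the RefSeq start for MKI67, CDC20 and KIF11, 22 bases before it for BUB1 and 37 bases before it for CENPE. GENCODE 29 annotates exons over 30 bases of the BUB1 and CENPE stretches and 26 of the CDC20 stretch, and over 0 of the others. Capitals mark TTTGAA or CCAAT, or their reverse complements TTCAAA and ATTGG.
MKI67: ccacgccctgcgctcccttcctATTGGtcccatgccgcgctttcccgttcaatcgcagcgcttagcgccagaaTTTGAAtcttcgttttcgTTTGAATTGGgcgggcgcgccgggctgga
BUB1: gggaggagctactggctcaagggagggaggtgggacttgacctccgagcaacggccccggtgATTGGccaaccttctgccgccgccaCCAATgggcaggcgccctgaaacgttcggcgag
CDC20: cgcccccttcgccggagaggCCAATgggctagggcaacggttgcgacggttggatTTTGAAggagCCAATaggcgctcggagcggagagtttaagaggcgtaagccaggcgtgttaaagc
KIF11: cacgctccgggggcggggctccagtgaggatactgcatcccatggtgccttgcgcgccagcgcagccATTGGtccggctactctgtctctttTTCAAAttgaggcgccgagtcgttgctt
CENPE: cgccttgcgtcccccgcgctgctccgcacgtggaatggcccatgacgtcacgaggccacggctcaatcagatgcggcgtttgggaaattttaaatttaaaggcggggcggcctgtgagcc
These stretches lie at chr10:128126424-128126543, - strand (MKI67), chr2:110678085-110678204, - strand (BUB1), chr1:43358861-43358980, + strand (CDC20), chr10:92593010-92593129, + strand (KIF11) and chr4:103198380-103198499, - strand (CENPE). MKI67 has 2 copies of TTTGAA, the second sharing 1 base with an ATTGG. CDC20 has a TTTGAA between 2 copies of CCAAT, and KIF11 has both elements in the reverse direction. BUB1 has 2 CCAAT boxes and no TTTGAA in its window, and the CENPE stretch has neither. All 5 genes fell in AXL knockout cells, so the lower genes included promoters with both elements, with one and with none in the stretch shown. Of the 23 genes with TTTGAA, 6 were lower, with a median log2 fold change of -0.07. Of the 10 without it, 6 were lower, with a median of -0.23. Of the other 1537 tested genes with TTTGAA, 307 were lower. These shares were not compared by a test, and a match of letters is not a bound site.

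Among the kinases and phosphatases of mitotic entry, CDC25B was the 1 of 8 that passed. Counts of this and the following small groups are descriptions. They are read against 18.5% of all genes lower, and 23.1% of genes in the same range of means. CDC25B, a phosphatase that activates CDK1 with cyclin B, fell to an implied 895 normalized counts in AXL knockout cells, against 1350 in parental cells (log2 fold change -0.59 ± 0.16 and adjusted p 0.000599 by the authors' DESeq2 Wald test in their deposited table). The kinase at the centre of mitosis did not pass: CDK1 stood at 2076 in AXL knockout and 1994 in parental cells (0.06 ± 0.05), with a 95% interval of -0.05 to 0.17. Its cyclins had wider intervals. CCNB1, cyclin B1, stood at 3283 in AXL knockout and 3848 in parental cells (-0.23 ± 0.13, interval -0.48 to 0.02). CCNB2, cyclin B2, stood at 615 in AXL knockout and 586 in parental cells (0.07 ± 0.09). PLK1, the polo kinase of mitotic entry and spindle formation, stood at 3011 in AXL knockout and 3716 in parental cells (-0.30 ± 0.14, adjusted p 0.0813). It was among the 3 genes closest to the threshold without passing, with KIF23 (adjusted p 0.0744) and BUB1B (adjusted p 0.0995). AURKA, the centrosomal Aurora kinase, had -0.14 ± 0.13, CDC25C, the sister phosphatase of CDC25B, 0.02 ± 0.14 and NEK2, a kinase of centrosome separation, 0.15 ± 0.09. None of these 3 passed, and the interval for AURKA ran from -0.39 to 0.10.

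In the spindle assembly checkpoint, 2 of 5 genes fell and all 5 fold changes were negative. Among the 8110 genes in the same range of means, 23.1% were lower and 3956 had a negative fold change. BUB3, the WD-repeat protein that brings BUB1 and BUBR1 to kinetochores (chromosome 10, 123154277 to 123170467), stood at 1875 in AXL knockout and 2828 in parental cells, a log2 fold change of -0.59 ± 0.06 (adjusted p 7.78e-24, authors' deposited table). BUB1, its kinase partner, stood at 929 in AXL knockout and 1234 in parental cells (-0.41 ± 0.09, adjusted p 1.74e-05). BUB1B, which encodes BUBR1, a subunit of the inhibitor of the anaphase-promoting complex, had -0.14 ± 0.07. MAD2L1, the MAD2 protein of the same inhibitor, had -0.07 ± 0.07, and TTK, the MPS1 kinase at the head of the checkpoint, had -0.03 ± 0.08. Neither MAD2L1 nor TTK passed, and their intervals of -0.20 to 0.06 and -0.18 to 0.12 do not reach the value of BUB3.

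The chromosomal passenger complex corrects faulty attachments and later directs cytokinesis. Its kinase AURKB was lower, at 772 normalized counts in AXL knockout and 934 in parental cells (-0.28 ± 0.07, adjusted p 0.000224 in the authors' deposited table). Its 3 partners did not pass. The scaffold INCENP stood at 1516 in AXL knockout and 1528 in parental cells (-0.01 ± 0.07). Survivin, BIRC5, had -0.06 ± 0.07 and borealin, CDCA8, 0.02 ± 0.07. Whether AURKB differed from its partners was not tested.

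The kinetochore genes held the one rise and one of the larger falls. SPC25, a subunit of the NDC80 complex that grips microtubules, rose to 304 normalized counts in AXL knockout cells, against 214 in parental cells (0.51 ± 0.11, interval 0.30 to 0.72, adjusted p 1.38e-05, authors' deposited table). The other 3 subunits of that complex did not pass: NDC80 had 0.07 ± 0.08, NUF2 -0.05 ± 0.09 and SPC24 0.02 ± 0.11. The interval of SPC25 does not meet that of NDC80 (-0.09 to 0.22), NUF2 (-0.23 to 0.13) or SPC24 (-0.20 to 0.25). CENPE, the kinesin that carries chromosomes to the spindle equator, fell to 358 in AXL knockout cells, against 494 in parental cells (-0.46 ± 0.10, adjusted p 2.37e-05). CENPA, the centromeric histone H3 variant, had 0.07 ± 0.10, and CENPF, a large protein of the outer kinetochore, -0.06 ± 0.07. The 7 genes of this group had a median of 0.02.

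Of 5 spindle motors and microtubule factors, 3 were lower, where 23.1% of genes in the same range of means were. KIF11, the kinesin that pushes spindle poles apart, stood at 949 in AXL knockout and 1082 in parental cells (-0.19 ± 0.06, adjusted p 0.0107, authors' deposited table). TPX2, which activates Aurora A and nucleates spindle microtubules, stood at 2749 in AXL knockout and 3259 in parental cells (-0.25 ± 0.06, adjusted p 0.000654). HMMR, a spindle protein and hyaluronan receptor, stood at 804 in AXL knockout and 1103 in parental cells, with a wide error (-0.46 ± 0.16, adjusted p 0.0163). KIF2C, the microtubule-depolymerizing kinesin MCAK, had -0.02 ± 0.08, and DLGAP5, which stabilizes kinetochore fibres, -0.13 ± 0.08; neither passed.

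In the midzone and cytokinesis group 3 of 5 genes were lower, where 23.1% of genes in the same range of means were. ANLN, anillin, the scaffold of the contractile ring, stood at 3726 in AXL knockout and 4511 in parental cells (-0.28 ± 0.05, adjusted p 2.38e-08, authors' deposited table). ECT2, the exchange factor that activates RhoA at the furrow, stood at 1782 in AXL knockout and 2265 in parental cells (-0.35 ± 0.06, adjusted p 3.16e-08). KIF20A, a kinesin of the central spindle, stood at 818 in AXL knockout and 956 in parental cells (-0.23 ± 0.09, adjusted p 0.0375). KIF23, the kinesin of centralspindlin, stood at 994 in AXL knockout and 1112 in parental cells and did not pass (-0.16 ± 0.07). PRC1, which bundles midzone microtubules, had about the same level in both groups, 174 in AXL knockout and 175 in parental cells (-0.01 ± 0.14, interval -0.28 to 0.26).

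The 3 genes of the anaphase ubiquitin pathway were all lower, where 23.1% of genes in the same range of means were. CDC20, the activator of the anaphase-promoting complex, stood at 2757 in AXL knockout and 3378 in parental cells (-0.29 ± 0.07, adjusted p 0.000115, authors' deposited table). UBE2C, the ubiquitin-conjugating enzyme of that complex, stood at 3074 in AXL knockout and 3368 in parental cells (-0.13 ± 0.05, adjusted p 0.0351), the smallest change to pass. PTTG1, securin, the inhibitor of separase, stood at 1053 in AXL knockout and 1216 in parental cells (-0.21 ± 0.08, adjusted p 0.0376).

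MKI67, which encodes the proliferation antigen Ki-67 that coats mitotic chromosomes (chromosome 10, 128096659 to 128126385), had the lowest fold change of the 40. It stood at 2843 normalized counts in AXL knockout and 4834 in parental cells, a log2 fold change of -0.77 ± 0.06 (interval -0.87 to -0.66, adjusted p 4.05e-42, authors' deposited table). Its level fell by 41.2%. FOXM1, the transcription factor of the G2/M programme, fell to 2576 in AXL knockout cells, against 2947 in parental cells (-0.19 ± 0.06, adjusted p 0.00216). TOP2A, topoisomerase II alpha, which untangles sister chromatids and like Ki-67 is used as a proliferation marker, stood at 3708 in AXL knockout and 3936 in parental cells and did not pass (-0.09 ± 0.07, interval -0.21 to 0.04). The intervals of MKI67 and TOP2A do not meet. Their chromosomal neighbours, described below, also differed, with a median log2 fold change of -0.42 around MKI67 and 0.24 around TOP2A. The part of the regions in this contrast was not tested.

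Of the 23 genes that did not pass, 15 had a negative and 8 a positive fold change, and their values ran from -0.30 (PLK1) to 0.15 (NEK2). For 13 of them the 95% interval lay within -0.25 to 0.25, so a larger change than that was outside it. For the other 10, PLK1 and CCNB1 among them, the interval reached further so a change of that size lay within it.

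Several of these genes had wider standard errors than genes of like abundance. The authors' standard error for each gene was set against those of the 200 tested genes nearest to it in mean count. For 21 of the 40, fewer than 20 of these 200 had an error as wide, a position held by 9.85% of the 8110 genes in the same range of means. The error was more than 1.5 times the median of the nearest genes for 5 of the 40, against 1.37% of those 8110 genes. These were CCNB1 and, with their ratios, PLK1 at 2.82 times, HMMR at 2.44, CDC25B at 2.43 and AURKA at 2.22. Each standard error implies a dispersion in the authors' fit, given here as a coefficient of variation (CV) beyond counting error. For PLK1 this was 12.8%, where the median of its nearest genes was 4.25%. How closely such fitted values follow the spread between libraries was not tested. For CCNB1 it was 11.3% against the same 4.25%, for HMMR 14.5% against 5.13%, and for CDC25B 13.8% against 4.94%. CDK1 had an error 1.00 times that of the genes nearest to it and an implied CV of 4.41%. Of the 8 entry genes, CDK1 was the 1 without a wide error by rank (fewer than 20 of 200 as wide). By ratio, however, CCNB2 (1.12 times), CDC25C (1.12) and NEK2 (1.14) were also near the median of their nearest genes. Of the other mitotic genes described below 18 of 123 had an error that wide by rank, and of 25 G1/S and replication genes 2 did. The knockout libraries come from 2 clones, and how much of these errors came from differences between the clones was not tested.

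**Figure D3:**
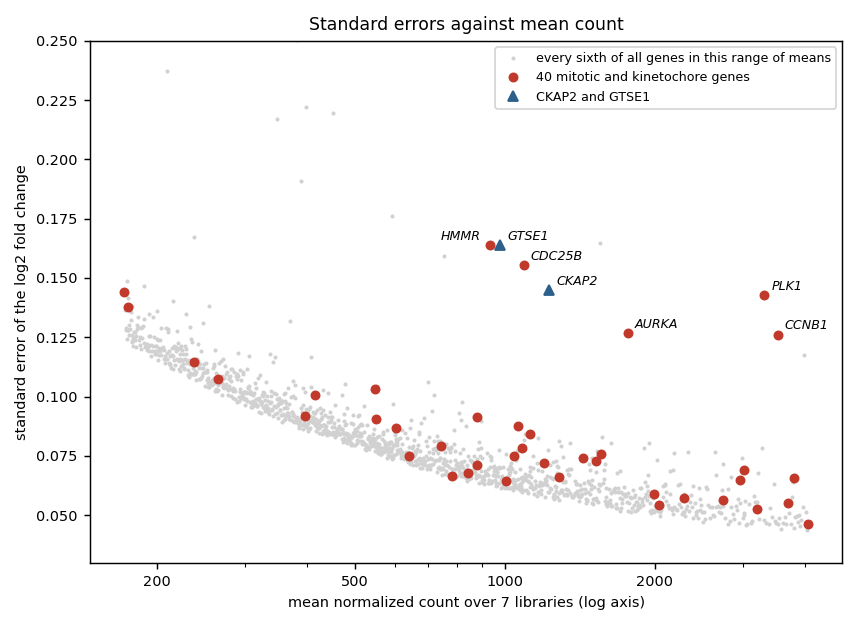
Standard error of the log2 fold change against the mean normalized count over 7 libraries (log axis), for the 40 genes (red), CKAP2 and GTSE1 (blue triangles) and every sixth of all genes in this range (grey). PLK1, CCNB1, HMMR, CDC25B and AURKA lie well above the grey band, at errors of 0.13 to 0.16, while most of the other 35 lie on or near it.

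MKI67 and BUB3, 2 of the 3 genes with the largest falls, lay on chromosome 10 among other genes that were lower. For each gene the median log2 fold change of the 20 nearest protein-coding genes on its chromosome, with a mean of at least 50, was computed. For MKI67 this median was -0.42, and 14 of the 20 neighbours were lower and 1 higher. For BUB3 it was -0.28, with 13 lower and 4 higher. For the other 38 genes the neighbour median lay between -0.23 (MAD2L1) and 0.24 (TOP2A). A median beyond 0.25 in either direction was found for 9.04% of 10404 protein-coding genes. MKI67 and BUB3 were each lower than their neighbours' median, by the values above. With both set aside 14 of the 38 remaining genes were lower and 1 higher, with a median of -0.13. Of all genes tested 18.5% were lower and 19.5% higher, and of genes in the same range of means 23.1% and 27.3%. Neither background leaves out genes in regions that moved. A regional change and a change of the gene alone cannot be told apart for MKI67 and BUB3 from one comparison of clones with their parental line.

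**Figure D4:**
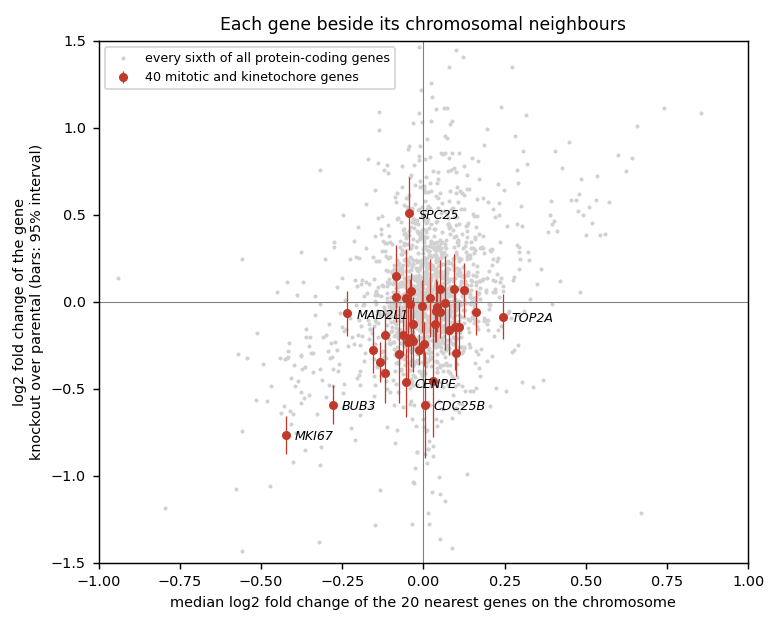
Log2 fold change of each gene (vertical axis, knockout over parental, bars for 95% intervals) against the median log2 fold change of its 20 nearest genes on the chromosome (horizontal axis). Red points are the 40 genes and grey points every sixth of all protein-coding genes; MKI67 at -0.42 and BUB3 at -0.28 on the horizontal axis stand left of the other red points, and CDC25B, as low as BUB3, has a neighbour median of 0.00.

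The remaining genes of the mitotic machinery went in both directions. Across 8 lists with 123 genes, 32 were lower (26.0%), 17 higher (13.8%) and 74 did not pass in the authors' deposited table. Their median was -0.07. Of all genes tested, 18.5% were lower and 19.5% higher. Among the 8110 genes in the range of means of the 40 genes, 23.1% were lower and 27.3% higher. The means of the 123 ran from 34.8 to 6891, beyond that range on both sides. The counts of the single lists are descriptions, read against these shares. Of 19 further spindle and cytokinesis genes 7 were lower and 0 higher, with a median of -0.14, the same as that of the 40 genes. TACC3, which binds spindle microtubules with clathrin, stood at 1454 in AXL knockout and 2503 in parental cells (-0.78 ± 0.06, adjusted p 3.17e-36). CEP55, a scaffold of abscission, had -0.51 ± 0.08 and the chromokinesin KIF4A -0.33 ± 0.07. Of 12 centrosome and centriole genes 4 were lower and 1 higher. The centriole protein CEP135 stood at 62.2 in AXL knockout and 145 in parental cells (-1.22 ± 0.17), and pericentrin, PCNT, had -0.58 ± 0.10 and CEP152 -0.47 ± 0.14.

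Cohesin and condensin genes had 7 of 20 lower and 3 higher. The condensin core subunit SMC4 stood at 1603 in AXL knockout and 2396 in parental cells (-0.58 ± 0.06), and NCAPG, a subunit of condensin I, had -0.51 ± 0.07. NCAPD3, a subunit of condensin II, rose to 2152 in AXL knockout cells, against 1402 in parental cells (0.62 ± 0.05). Of 17 genes of the anaphase-promoting complex and its partners, 4 were lower and 1 higher. CDC16, a core subunit, had -0.62 ± 0.07, UBE2S, which extends its ubiquitin chains, -0.51 ± 0.07, and the subunit ANAPC5 0.48 ± 0.06.

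Of 27 other centromere and kinetochore genes 6 were lower and 5 higher. CENPM of the constitutive centromere network had 0.51 ± 0.08, MIS12 of the outer kinetochore base -0.55 ± 0.09 and SKA2, of the complex that tracks microtubules, -0.42 ± 0.09. Of 7 other checkpoint genes 2 were higher and 1 lower. The 2 were KNTC1 (0.52 ± 0.08) and ZW10 (0.39 ± 0.07), both of the complex that recruits dynein to kinetochores, and TRIP13, which dismantles the checkpoint complex, had -0.17 ± 0.05. Of 12 other entry genes 2 were higher and 2 lower. WEE1, the kinase that holds CDK1 inactive, rose to 478 in AXL knockout cells, against 374 in parental cells (0.36 ± 0.09). ENSA, whose product inhibits PP2A in mitosis, had 0.24 ± 0.05 and HASPIN, the histone H3 kinase that recruits the passenger complex, -0.47 ± 0.10.

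The MuvB, B-MYB and DREAM list, which holds regulators of the G2/M genes, had 3 of 9 higher and 1 lower, with a median of 0.13. The pocket proteins RBL1, or p107, and RBL2, or p130, which repress cell cycle genes within DREAM, both rose. RBL1 was at 325 in AXL knockout and 214 in parental cells (0.60 ± 0.10, adjusted p 4.09e-08, authors' deposited table), and RBL2 at 472 in AXL knockout and 343 in parental cells (0.46 ± 0.10, adjusted p 8.32e-06). MYBL2, the activator B-MYB, named here after its value was seen, rose as well, at 7353 in AXL knockout and 6275 in parental cells (0.23 ± 0.05, adjusted p 5.12e-05). TFDP1, the partner of the E2F factors, had -0.37 ± 0.04. Of 25 G1/S and replication genes 4 were higher (16%), 4 were lower (16%) and 19 had positive fold changes, and their median was 0.05. Among all 16522 genes tested, 19.5% were higher, 18.5% were lower and 7997 had positive fold changes. For the 8110 genes in the range of means of the 40 genes, these values were 27.3%, 23.1% and 4154. PCNA, the sliding clamp of replication, rose to 5001 in AXL knockout cells, against 3689 in parental cells (0.44 ± 0.05). CCNE1, cyclin E1, had -0.60 ± 0.08 and SLBP, the histone mRNA binding protein, -0.48 ± 0.05. The difference between the 25 and the 40 genes was not tested.

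**Figure D5:**
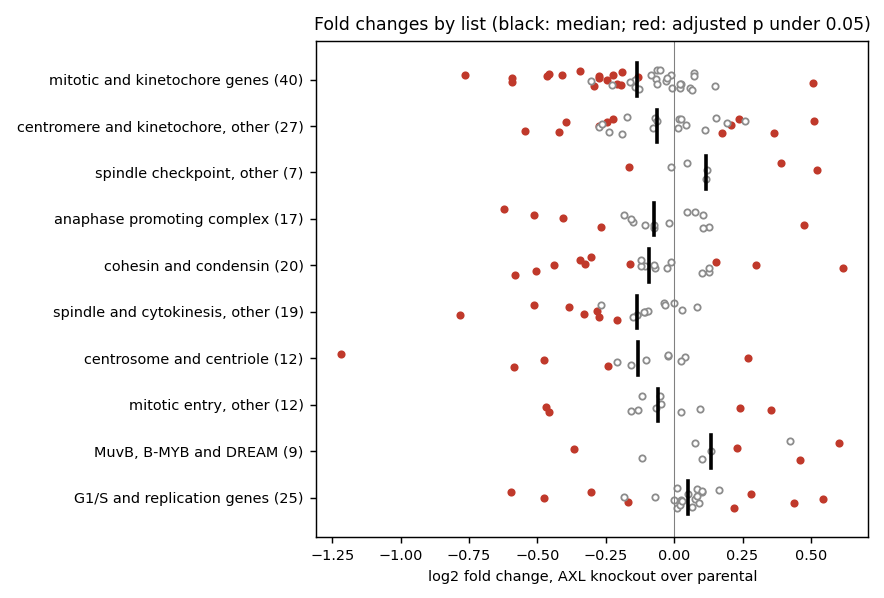
Log2 fold changes (knockout over parental) of the 40 mitotic and kinetochore genes and of 9 further lists, with the number of genes in parentheses, the median as a black bar and genes with an adjusted p under 0.05 in red. The median runs from -0.14 for the 40 genes to 0.13 for the MuvB, B-MYB and DREAM list and 0.05 for the G1/S and replication genes.

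Many called genes of these 8 lists lay in regions that moved the same way. The neighbour median was beyond 0.25 for 18 of the 121 that have one, and of these 15 passed the test, all in the direction of their neighbours. They make up 30.6% of the 49 called genes, where the same holds for 634 of 5087 called protein-coding genes. The neighbour median was -0.78 for CEP135, -0.51 for TACC3, -0.40 for TFDP1, -0.39 for MIS12 and -0.38 for both SMC4 and CDC16. For HASPIN it was -0.37 and for SKA2 -0.32. The neighbour median was 0.67 for both NCAPD3 and ANAPC5, 0.51 for KNTC1 and 0.48 for ZW10, and among the G1/S genes -0.57 for SLBP. RBL1 (0.09), RBL2 (0.11), CENPM (0.07), UBE2S (0.14) and NCAPG (0.04) had neighbours near 0.

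The library type reads the 3′ ends of transcripts, and 22 of the 40 genes overlap another annotated gene in GENCODE 29, 11 of them one with a row of its own. KIF20A overlaps CDC23 and BRD8, and FOXM1 overlaps RHNO1 and ITFG2, all on the opposite strand. CENPA overlaps SLC35F6 on its own strand. Whether the counting used strand is not given in the sources used here, so the counts of these genes are uncertain to that extent. Named pseudogenes exist for 9 of the 40, and those of NEK2 and CDC20 had rows.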

How the data were processed

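RNA of 7 PC9 libraries, 4 AXL knockout and 3 parental, was sequenced by bulk MARS-seq from poly-T primers and mapped to the human genome, per the labels' protocols. The submitters' processing notes name DESeq2 but no version of it. For the aligner, genome build, counting, strand and molecular identifiers, nothing is given in the sources used here. Per the file headers, the authors deposited 1 row per Ensembl gene with a signal (the mean normalized count over the libraries), a log2 fold change and its log2 standard error, a score (the Wald statistic), a p-value and an adjusted p-value. The deposited score equals fold change over standard error to within 1.56e-13. Of 16527 rows, 5 have a mean of 0 and 16522 have a test. Values per library were not analysed here, so edgeR, planned had counts per library been given, was not run, and the authors' Wald test is reported, 2-sided, adjusted over all 16522 genes.

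The table does not name its contrast. Its 68 rows of the lowest means, under 0.6, can be written as whole reads times 7 steps, 3 going with negative and 4 with positive fold changes. The signs of these rows also assigned the sides, and 19 of 19 rows with reads on 1 side match. With 3 parental and 4 knockout libraries, and AXL at -6.28, positive values were read as higher in knockout cells. Levels were computed from the mean and fold change with weights of 4 and 3. Implied CVs were solved from the standard error under a negative binomial model of 2 groups. On simulated data for 9679 genes the median error of these levels was 0.0168% and the highest 0.304%. Of 200 genes changed by 0.5 on the log2 scale 92% were recovered, and 5.64% of the calls were false. The simulated libraries were independent, without a clone effect, and the fit was given the true dispersions. It therefore checks the computation and not the design. Intervals (95%) use the authors' standard errors and a normal distribution. The mean normalized counts sum to 12209504, and the precision at each depth is in those errors; depths of single libraries were not analysed here.

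Symbols were matched for 16428 identifiers and positions (GENCODE 29, GRCh38) for 16517. Promoters came from RefSeq's table (GRCh38.p14). Clone names in the design text differ from those in the sample titles and were left unmatched. The 40 genes and all lists were chosen with earlier results of these data known. The analyses of standard errors, promoter elements and overlapping genes were chosen with the values in view. All 40 genes are described. From each other list the rule named up to 3 called genes with the smallest adjusted p whose higher group averaged at least 20. Alternatives were an adjusted p under 0.01, a 2-fold minimum, a mean of at least 20, a t distribution with 5 degrees of freedom, centring, a test against a log2 fold change of 0.25, and leaving out genes in regions that moved. Python 3.11.15, numpy 2.4.6, pandas 2.3.3 and scipy 1.17.1 were used.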

Additional observations from a re-analysis of the deposited data

How the results depend on the processing

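The 16 lower genes and 1 higher gene became 11 and 1 at an adjusted p under 0.01, where KIF11, HMMR, KIF20A, UBE2C and PTTG1 lost their call. They were 16 and 1 with a mean of at least 20 (22.7% of all genes lower) and after centring by 0.00651. Without MKI67 and BUB3 they were 14 and 1, where 18.5% of all genes were lower and 19.5% higher. The median stayed between -0.14 and -0.13. A t distribution with 5 degrees of freedom left 8 lower and 1 higher (9.77% of all genes lower): CDC25B (adjusted p 0.0556), KIF11 (0.106), TPX2 (0.0565), HMMR (0.120), KIF20A (0.157), UBE2C (0.153), PTTG1 (0.157) and FOXM1 (0.0718) no longer passed. Against a log2 fold change of 0.25, 2 stayed lower, MKI67 and BUB3, and 1 higher, SPC25, with 8.07% of all genes lower. At least 2-fold, 0 were lower and 0 higher. The cause of each lost call is the stricter rule itself. No direction turned among the results recomputed, but every setting except centring kept each gene's fold change. Centring moved it by 0.00651, so the unchanged directions are no check on the results. No paired analysis was possible because values per library were not analysed here; edgeR with TMM and leaving out each replicate were not run for the same reason. The 4 knockout libraries count as 4 samples in the authors' test, although they come from 2 clones.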

Other observations

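GTSE1 and CKAP2, genes of the other mitotic lists that were chosen here after their values had been seen, had standard errors as wide as those of PLK1 and HMMR. GTSE1, a microtubule-binding protein of G2 and S phase, had an error 2.47 times the median of the 200 genes nearest in mean in the authors' deposited table, and stood at 843 normalized counts in AXL knockout and 1159 in parental cells (log2 fold change -0.46 ± 0.16, adjusted p 0.0158). CKAP2, a spindle protein, had an error 2.33 times that median and stood at 1127 in AXL knockout and 1358 in parental cells (-0.27 ± 0.14, adjusted p 0.137). FAM83D, a spindle protein outside the lists, had one 2.20 times its median and a fold change near 0 (-0.02 ± 0.14).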
